A study of Mus musculus with 10 samples.

Results

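Doublecortin, its kinase paralogues, the stathmins and 3 other proteins of the growing axon were followed in the mouse dentate gyrus between 4 and 12 weeks of age. The 10 genes are Dcx, Dclk1, Dclk2, Stmn1, Stmn2, Stmn3, Stmn4, Map1b, Gap43 and Marcksl1. They were chosen as a protein family and its functional neighbours, with earlier results of these data known. Each is represented by the probe set whose platform annotation names that gene alone, or by the brighter one where a gene has more. All 10 were measured, out of 19752 genes with such a probe set. RNA came from dentate gyri of C56BL/6J mice (the strain as the labels write it), cut out with a hypodermic needle tip and dissociated, at 4, 6, 8, 10 and 12 weeks, with 2 whole-transcript Affymetrix arrays per age and no treatment at any age. Whether replicate 1 and replicate 2 stand for separate animals is not stated in the labels. The p-values thus rest on the spread between arrays, which may be technical, and not on a known spread between animals. Where a straight line over age is fitted, the error also holds departures from that line.

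Growing neurons extend their processes by adding and removing tubulin at the ends of microtubules and by moving membrane and actin at the growth cone. Doublecortin binds the microtubule lattice, stabilises it, and is widely used as a marker of migrating and immature granule neurons in the adult dentate gyrus. Stathmins act the other way, since they hold free tubulin dimers and promote disassembly, while Gap43, Marcksl1 and Map1b encode proteins enriched in growing axons.

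Levels are the deposited values, taken as log2 units per probe set, and a change is a difference on that scale. Changes over age were tested with limma, a linear model with moderated variances fitted to all 19752 genes. The trend is the fitted slope on age, scaled to the 8 weeks between the first and the last age, and p-values were adjusted over all genes by the Benjamini-Hochberg method with a threshold of 0.05. Pearson correlations between arrays ran from 0.994 to 0.998 across genes. The labels give the sex as female, whereas Xist lay at 5.41 to 6.02 and the Y-linked gene Uty at 9.10 to 9.34 on all 10 arrays. The Y-linked genes Kdm5d and Eif2s3y lay at 8.89 to 9.20 and 8.59 to 9.16. These values go against the label and read as male. The tissue carried the granule cell markers Prox1 (mean 12.29) and C1ql2 (mean 11.58). A reference for dim signal was the 95th percentile of 1203 receptor genes (olfactory, vomeronasal and trace amine receptors, few of which are thought to be expressed in brain), which averaged 7.01 over the arrays, and 0 of the 10 genes lay under it. The array of 6 weeks replicate 1 stood apart in its choroid plexus markers (mean of 5 genes 9.94, against 7.70 to 8.04 on the others), and that of 8 weeks replicate 1 had the narrowest distribution (SD 2.12).

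Of the 10 genes, Dcx was the one that passed the test of change with age. Both arrays of every age lay below both arrays of the age before, and at 12 weeks Dcx stood at 38.4% of its 4-week level. Its 2 paralogues Dclk1 and Dclk2, all 4 stathmins, Map1b, Gap43 and Marcksl1 did not pass the test over all genes, and their fitted changes lay between −0.36 and 0.06. In all, 1 of the 10 genes was called lower and 0 higher, where 0.673% of all genes were called lower and 0.147% higher. The median change of the 10 genes was −0.16, or −0.14 without Dcx, beside 0.00 over all genes. All genes include 5365 under the reference for dim signal, against 0 of the 10. No comparison with genes of like level was made.

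**Figure D1:**
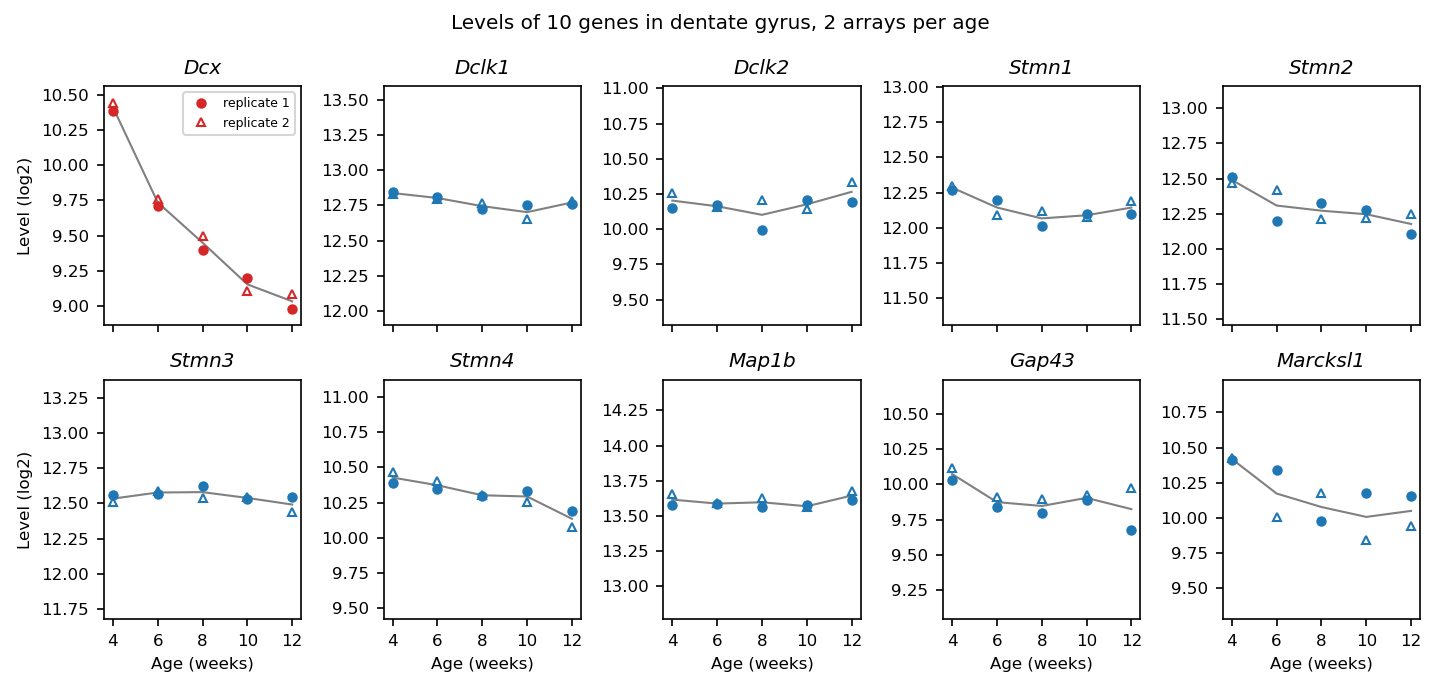
Level (log2) of each of the 10 genes against age in weeks, 1 point per array, with a line through the means of 2 arrays per age. Every panel spans the same range of log2 units. Dcx falls at each age to a mean of 9.03 at 12 weeks, while the other 9 genes stay within 0.58 log2 units over the 10 arrays.

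In the doublecortin family, Dcx lies on the X chromosome at 143855842 to 143933396, Dclk1 on chromosome 3 at 55242303 to 55539068 and Dclk2 on chromosome 3 at 86786150 to 86920952. All coordinates are those of the RefSeq table of GRCm38.p6, the assembly of the mm10 build in the submitters' processing notes. Dclk1 and Dclk2 encode proteins that join doublecortin domains to a kinase domain. The bases upstream of a listed start site of Dcx and of each paralogue are shown because these 3 genes share their protein domain. Of them, Dcx differed from both paralogues in its change with age. They come from RefSeq (GRCm38.p6), and each run is the 250 bases before the start, written 5′ to 3′ on the gene's strand. Capitals mark CANNTG, the E-box read by proneural factors such as Neurod1, and ACAAAG or its reverse complement CTTTGT, the core read by Sox factors, each searched on both strands.
Dcx, chrX:143933125-143933374, minus strand: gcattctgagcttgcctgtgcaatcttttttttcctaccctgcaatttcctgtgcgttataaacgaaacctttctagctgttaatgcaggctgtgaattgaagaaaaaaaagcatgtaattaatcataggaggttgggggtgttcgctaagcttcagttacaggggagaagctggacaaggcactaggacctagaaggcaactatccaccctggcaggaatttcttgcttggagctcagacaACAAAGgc
Dclk1, chr3:55242114-55242363, plus strand: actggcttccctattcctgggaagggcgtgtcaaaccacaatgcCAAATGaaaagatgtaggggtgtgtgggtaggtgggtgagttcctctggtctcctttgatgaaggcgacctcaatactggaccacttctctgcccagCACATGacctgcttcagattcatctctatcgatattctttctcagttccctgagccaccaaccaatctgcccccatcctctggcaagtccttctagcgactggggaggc
Dclk2, chr3:86920885-86921134, minus strand: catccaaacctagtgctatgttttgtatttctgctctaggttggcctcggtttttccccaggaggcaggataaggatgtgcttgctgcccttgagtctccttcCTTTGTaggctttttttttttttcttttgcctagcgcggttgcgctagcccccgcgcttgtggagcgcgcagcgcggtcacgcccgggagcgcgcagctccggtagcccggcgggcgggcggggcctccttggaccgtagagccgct

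The Dcx window held 0 E-boxes and 1 Sox core, which begins 8 bases before the start. The window shown is that of the second listed start of Dcx. That of the first (chrX:143933220-143933469) overlaps it and held neither motif. The Dclk1 window held 2 E-boxes and 0 Sox cores, and that of its second listed start (chr3:55461478-55461727) 1 E-box and 0 Sox cores. The Dclk2 window held 0 E-boxes and 1 Sox core. Of 32851 such windows in the table, 66.2% held at least 1 E-box and 16.5% at least 1 Sox core. The windows also differed in CG dinucleotides, with 3 for Dcx, 4 for Dclk1 and 21 for Dclk2, against a median of 6 over all windows. The Dcx window lies wholly, and the Dclk1 and Dclk2 windows partly, inside the annotated span of their gene. Windows were found for 6 of the 10 genes. A match of letters is a description and shows no binding.

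Dcx had levels of 10.38 and 10.44 at 4 weeks, 9.71 and 9.76 at 6 weeks, 9.40 and 9.50 at 8 weeks, 9.20 and 9.11 at 10 weeks, and 8.98 and 9.09 at 12 weeks (replicates 1 and 2). The ages do not overlap anywhere in this series, an order that 0.0962% of all genes showed. The fitted trend was −1.34 ± 0.13 (SE, adjusted p = 0.00043 in limma), or 2.53-fold lower. Only 2 genes of the table had a larger fall. The ages at the end of the series had means of 9.03 ± 0.07 at 12 weeks and 10.41 ± 0.04 at 4 weeks (SD, n = 2 each). That difference was −1.38 ± 0.07 (SE, adjusted p = 0.00029 in limma), where 0.39% of all genes were called lower between these ages.

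The largest step of Dcx was the first, although the steps were not tested against each other. Its mean at 6 weeks stood at 62.5% of the 4-week level, at 8 weeks at 51.3% and at 10 weeks at 41.8%, so that 49.1% of the log2 difference between 12 and 4 weeks lay in the first 2 weeks. The successive steps were −0.68 from 4 to 6 weeks, −0.29 from 6 to 8 weeks, −0.30 from 8 to 10 weeks and −0.12 from 10 to 12 weeks, each with an SE of 0.07. None of the 4 steps passed over all genes (adjusted p = 0.10, 0.71, 0.90 and 0.89 in limma), although the first 3 had an unadjusted p under 0.05. No gene of the table passed in any step in this fit, while 815 to 1234 genes per step had an unadjusted p under 0.05. Some alternative settings that keep all 10 arrays did call genes from 4 to 6 and from 10 to 12 weeks. The step from 6 to 8 weeks depended on 1 array. Without 8 weeks replicate 2, which leaves the array of narrowest distribution alone at that age, 876 genes were called higher and 203 lower in limma, and Dcx, at −0.34, was not among them (adjusted p = 0.052). Without 6 weeks replicate 2, 7 genes were called lower from 6 to 8 weeks and 10 higher from 4 to 6 weeks. The first step passed in 4 alternatives, with adjusted p between 0.0042 and 0.049 in limma. Without the 12-week arrays the trend, scaled to the same 8 weeks, was −1.63, and without the 4-week arrays −0.96 (adjusted p = 0.0027 and 0.016 in limma). In tissue of mixed cells, fewer doublecortin-expressing cells and less Dcx RNA per cell cannot be told apart.

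Dclk1, whose kinase-bearing product is also found in mature neurons, did not pass the test. Its values were 12.85 and 12.83 at 4 weeks, 12.81 and 12.80 at 6 weeks, 12.72 and 12.77 at 8 weeks, 12.75 and 12.65 at 10 weeks, and 12.76 and 12.78 at 12 weeks. Both 12-week arrays lay below both 4-week arrays, but the gap was small and the lowest value belonged to 10 weeks. The trend was −0.09 ± 0.06 (SE, adjusted p = 0.59 in limma). Dclk2 ran between 10.00 and 10.34, with its lowest value on 8 weeks replicate 1 and its highest on 12 weeks replicate 2. Its ages overlapped, and the trend was 0.06 ± 0.08 (SE, adjusted p = 0.87 in limma).

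The changes of paralogues were set against each other through the difference between their levels on the same array. Levels of different probe sets cannot be ranked, but a slope in that difference shows unequal change. The slope over age was tested with an exact two-sided permutation test over the 113400 distinct assignments of the ages to the 10 arrays, and p-values were adjusted over the 9 pairs compared. In both families the pairs share genes and are not independent. The genes were chosen with earlier results of these data known, and the fall of Dcx was known before the pairs were chosen.

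Dcx fell more than either paralogue. Dcx minus Dclk1 was −3.78 and −3.70 on the 12-week arrays, against −2.46 and −2.39 on the 4-week arrays. The difference of the changes was −1.24 ± 0.12 (SE, 95% interval −1.53 to −0.96, exact permutation adjusted p = 7.9e-05). Dcx minus Dclk2 was −1.21 and −1.25 at 12 weeks, against 0.23 and 0.19 at 4 weeks. Here the changes differed by −1.39 ± 0.11 (SE, 95% interval −1.64 to −1.14, exact permutation adjusted p = 7.9e-05). Both unadjusted values, 1.8e-05, are the smallest that this test can give. Between Dclk1 and Dclk2 the difference was −0.15 (95% interval −0.29 to −0.01), which did not pass (exact permutation adjusted p = 0.094). It passed in 5 of 17 alternatives, including those that left out 4 weeks replicate 2 (adjusted p = 0.041, exact permutation) or 8 weeks replicate 1 (adjusted p = 0.030, exact permutation).

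**Figure D2:**
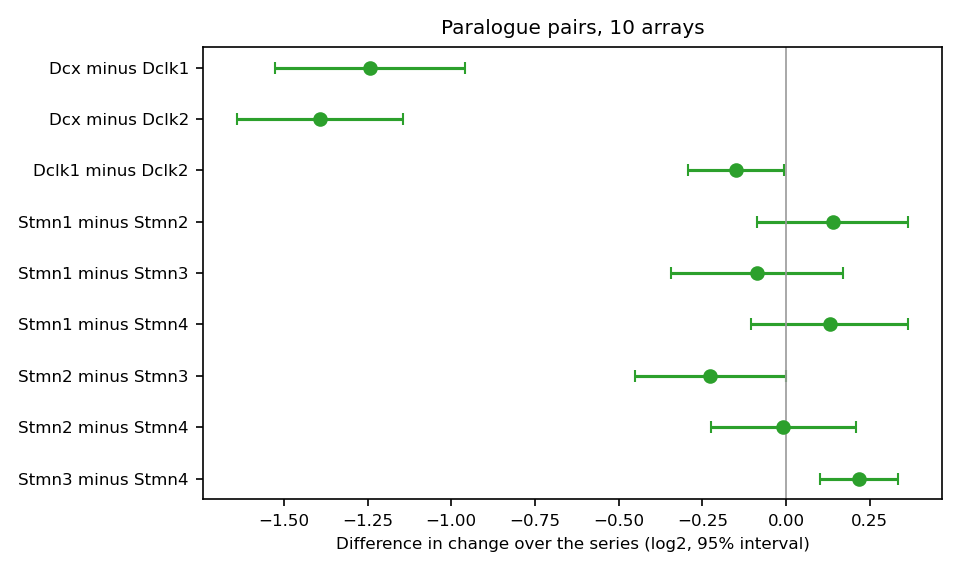
Difference in the log2 change over 4 to 12 weeks between the first and the second gene of each of 9 paralogue pairs, with 95% intervals from least squares over 10 arrays. The pairs of Dcx with Dclk1 and Dclk2 lie at −1.24 and −1.39, and of the stathmin pairs only Stmn3 minus Stmn4 has an exact permutation p that passed after adjustment.

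The stathmins are a family of 4 in this table. Stmn1 (chromosome 4, 134468320 to 134473843) encodes the soluble founding member, which is abundant in dividing and newly born cells. Stmn2 (chromosome 3, 8509527 to 8561604), Stmn3 (chromosome 2, 181306459 to 181314500) and Stmn4 (chromosome 14, 66344210 to 66361680) encode neuronal stathmins that are anchored to membranes by an added N-terminal stretch. None of the 4 passed over all genes, and the lowest adjusted p belonged to Stmn4.

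Stmn4 had levels of 10.39 and 10.47 at 4 weeks, 10.35 and 10.40 at 6 weeks, 10.30 and 10.31 at 8 weeks, 10.33 and 10.25 at 10 weeks, and 10.19 and 10.08 at 12 weeks. The 12-week arrays were the lowest of the 10, and 4 weeks overlapped with 6 weeks and 8 weeks with 10 weeks. The trend was −0.27 ± 0.06 (SE, adjusted p = 0.065 in limma). It passed in 3 of 23 alternatives, those without the dimmest 30% of genes (adjusted p = 0.029), with a trended prior variance (0.019) and with array weights (0.039), all in limma.

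Stmn2, known as SCG10 and enriched in growth cones, had levels of 12.51 and 12.47 at 4 weeks, 12.20 and 12.42 at 6 weeks, 12.33 and 12.22 at 8 weeks, 12.28 and 12.22 at 10 weeks, and 12.11 and 12.25 at 12 weeks. The 4-week arrays were the highest, and all later ages overlapped. Its trend was −0.27 ± 0.08 (SE, adjusted p = 0.16 in limma), of like size to that of Stmn4. With a trended prior variance it passed (adjusted p = 0.038 in limma).

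Stmn1 had levels of 12.27 and 12.30 at 4 weeks and between 12.01 and 12.20 on the other 8 arrays. Its means were 12.14 ± 0.07 at 12 weeks and 12.29 ± 0.02 at 4 weeks (SD, n = 2 each), and the lowest mean, 12.07 ± 0.08, belonged to 8 weeks. The trend was −0.14 ± 0.07 (SE, adjusted p = 0.53 in limma), and without the 4-week arrays its sign turned (0.01). A second probe set of Stmn1, annotated to the same transcripts, followed the first at 0.02 to 0.03 log2 units below it on every array. Stmn3 ran between 12.44 and 12.62 with no order by age, and its trend was −0.05 ± 0.06 (SE, adjusted p = 0.82 in limma). The other probe set of Stmn3 had a mean of 5.93, under the reference for dim signal.

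**Figure D3:**
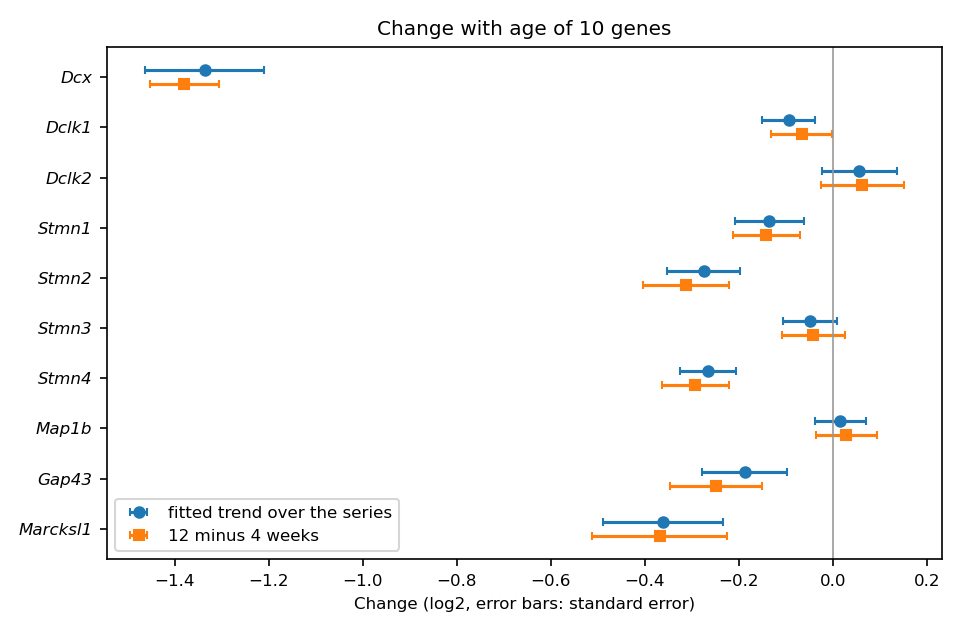
Change in log2 units of each of the 10 genes as the fitted trend over the series (circles) and as 12 minus 4 weeks (squares), with standard errors. Dcx lies at −1.34 and −1.38, and the other 9 genes lie between −0.37 and 0.06.

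Within the family, Stmn4 and Stmn3 differed in their change. Stmn3 minus Stmn4 was 2.35 and 2.36 on the 12-week arrays, against 2.17 and 2.04 on the 4-week arrays. The difference of the changes was 0.22 ± 0.05 (SE, 95% interval 0.10 to 0.33, exact permutation adjusted p = 0.0078). It did not pass without both 12-week arrays (0.20, exact permutation adjusted p = 0.11) or without both 4-week arrays (0.17, exact permutation adjusted p = 0.10). Stmn2 minus Stmn3 was −0.23 (95% interval −0.45 to −0.00), which did not pass (exact permutation adjusted p = 0.094). It passed without 6 weeks replicate 1 (adjusted p = 0.040, exact permutation) and without 12 weeks replicate 2 (adjusted p = 0.023, exact permutation). For Stmn2 minus Stmn4 the difference was −0.01 with an interval of −0.23 to 0.21. The 3 pairs with Stmn1 had differences between −0.09 and 0.14, with intervals that reach from −0.34 at the lowest to 0.37 at the highest, and exact permutation adjusted p between 0.29 and 0.51.

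Map1b, Gap43 and Marcksl1 encode proteins of the growing axon that are not related in sequence to doublecortin. Map1b (chromosome 13, 99421464 to 99516602) encodes a microtubule-associated protein of extending axons. It had the narrowest range of the 10 genes, 13.56 to 13.67, and a trend of 0.02 ± 0.05 (SE, adjusted p = 0.95 in limma). Its sign turned without 12 weeks replicate 2 (−0.02).

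Gap43 (chromosome 16, 42248552 to 42340651) encodes a growth-cone membrane protein phosphorylated by protein kinase C. Its levels were 10.03 and 10.11 at 4 weeks, 9.84 and 9.91 at 6 weeks, 9.80 and 9.89 at 8 weeks, 9.89 and 9.92 at 10 weeks, and 9.67 and 9.98 at 12 weeks. The 4-week arrays were the highest, and the 12-week arrays spanned the values of 6, 8 and 10 weeks. The trend was −0.19 ± 0.09 (SE, adjusted p = 0.45 in limma). It was −0.11 without 12 weeks replicate 1, and −0.28 without 12 weeks replicate 2.

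Marcksl1 (chromosome 4, 129513581 to 129515981), which encodes a myristoylated, actin- and calmodulin-binding substrate of protein kinase C, had the largest fitted change after Dcx. Its levels were 10.42 and 10.42 at 4 weeks, 10.34 and 10.01 at 6 weeks, 9.98 and 10.18 at 8 weeks, 10.17 and 9.84 at 10 weeks, and 10.16 and 9.94 at 12 weeks. The 4-week arrays agree closely, but the gap between the 2 arrays of an age reached 0.33 at 6 and at 10 weeks. The trend was −0.36 ± 0.13 (SE, adjusted p = 0.26 in limma). For comparison, and chosen after the values were seen, its relative Marcks had a trend of −0.23 ± 0.09 (adjusted p = 0.33 in limma). The Gap43-like growth-cone protein gene Basp1 had −0.08 ± 0.06 and the Map1b paralogue Map1a 0.08 ± 0.06 (adjusted p = 0.70 and 0.68 in limma).

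Between 12 and 4 weeks, 7 of the 10 genes had both 12-week arrays below both 4-week arrays, namely Dcx, Dclk1, Stmn1, Stmn2, Stmn4, Gap43 and Marcksl1. Over all genes 22.2% did so. In 0 of the 10 genes both 12-week arrays lay above both 4-week arrays, against 21.6% of all genes. The 12 minus 4 week differences of the 6 genes other than Dcx lay between −0.37 and −0.07, and none passed. The age means fell at each of the 4 steps for 3 of the 10 genes (Dcx, Stmn2 and Stmn4), against 2.23% of all genes. In the trend, 4 of the 10 genes had an unadjusted p under 0.05 (Dcx, Stmn2, Stmn4 and Marcksl1), against 11.7% of all genes.

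The 10 genes did not vary as 1 block over the arrays. Dcx correlated with Stmn2 (r = 0.84) and Stmn4 (r = 0.81) over the 10 arrays, and these genes share the order by age. Dclk2 ran with Map1b (r = 0.80) and opposite to Stmn3 (r = −0.93), and none of these 3 had a trend that passed. Without 8 weeks replicate 1, where Dclk2 was lowest and Stmn3 highest, the last value was −0.93 over 9 arrays. These are descriptions over arrays that share processing and, for Dcx, age.

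The genes most like Dcx over the 10 arrays, by Pearson correlation, were Dpysl3 (r = 0.995), Enpp6 (0.991), Cilk1 (0.987), Ppp1r14c (0.985) and Igfbpl1 (0.981). Dpysl3 encodes a collapsin response mediator protein of growing neurites, Enpp6 an enzyme of choline metabolism that marks new oligodendrocytes, and Cilk1 a kinase of primary cilia. Ppp1r14c encodes an inhibitor of protein phosphatase. The changes of these genes ran from −1.35 for Igfbpl1 to −0.36 for Cilk1, and all 5 passed the trend. Because they were picked for their likeness to Dcx on the same arrays, that result largely follows from the choice and is no separate support. Without both 4-week arrays, Enpp6, Cilk1 and Ppp1r14c did not pass (adjusted p = 0.22, 0.51 and 0.41 in limma). Cilk1 did not pass without 4 weeks replicate 1, 4 weeks replicate 2 or 12 weeks replicate 1 (adjusted p = 0.11, 0.085 and 0.053 in limma), nor Ppp1r14c without 4 weeks replicate 1 or 2 (0.077 and 0.059). For the other 9 genes the most alike was Pdzd4 for Dclk1 (r = 0.956), Lmbrd2 for Dclk2 (0.972), Dcaf12 for Stmn1 (0.963), Psph for Stmn2 (0.945) and Ubxn10 for Stmn3 (0.954). It was Sgsm3 for Stmn4 (r = 0.981), Lonrf2 for Map1b (0.963), Ptprd for Gap43 (0.952) and Jakmip2 for Marcksl1 (0.951). None of these 9 had a trend that passed, and their changes lay between −0.16 and 0.08.

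**Figure D4:**
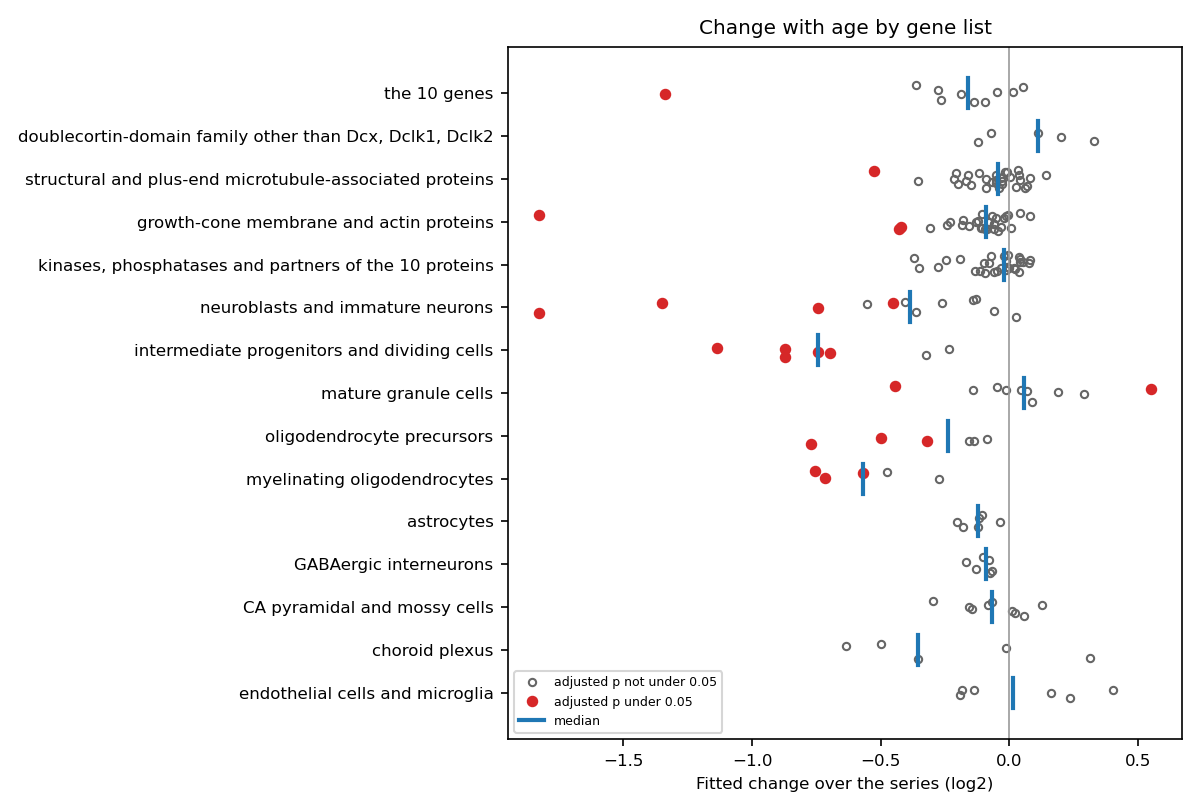
Fitted log2 change over 4 to 12 weeks for the 10 genes and for each gene of 14 lists, with filled points for genes at an adjusted p under 0.05 and a bar at each median. Dcx stands apart from the other 9 genes, and the lists of immature neurons and dividing cells hold several genes called lower.

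Other genes of the same machinery are read against 0.673% of all genes called lower and 0.147% called higher in the trend, and 48.8% with a negative change. Dim genes are included in these shares. Of 5 measured genes with a doublecortin domain besides these 3, none passed. Dclk3, another kinase of the family, had a change of 0.33 ± 0.11 (adjusted p = 0.23 in limma) and Dcdc2a, of the primary cilium, 0.20 ± 0.10 (adjusted p = 0.45). Rp1l1 had 0.11 ± 0.13, at a mean level of 7.02 that lay close to the reference for dim signal (7.01). The photoreceptor gene Rp1 (−0.12 ± 0.10) and Dcdc2c (−0.07 ± 0.07) lay under that reference. Of 30 other microtubule-associated proteins 1 fell and 0 rose, with a median of −0.045 and 21 negative changes. That gene was Tpx2, a spindle assembly factor of dividing cells (−0.53 ± 0.09, adjusted p = 0.023 in limma). Its mean level of 7.27 lay close to the reference for dim signal. It did not pass without both 12-week arrays (adjusted p = 0.22 in limma) or without both 4-week arrays (0.55). Its adjusted p was between 0.056 and 0.13 in limma without either 4-week array, either 12-week array or 10 weeks replicate 2. Map1s, the smallest of the Map1 proteins, had −0.01 ± 0.07, and its sign turned under quantile normalization (0.02) and median centring (0.00).

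Of 30 genes of growth-cone membrane and actin 3 fell and 0 rose, with a median of −0.09 and 27 negative changes. They were Cd24a, a surface glycoprotein of immature neurons (−1.83 ± 0.15), the adhesion molecule gene L1cam (−0.43 ± 0.06) and Fscn1, which bundles actin in filopodia (−0.42 ± 0.08). Their adjusted p was 0.00015, 0.0063 and 0.037 in limma. L1cam and Fscn1 did not pass without both 12-week arrays (adjusted p = 0.082 and 0.23 in limma). The same held without both 4-week arrays (0.35 and 0.37). L1cam did not pass without 4 weeks replicate 1 (adjusted p = 0.057). Fscn1 lost its call in 14 of 23 alternatives, among them the fits without each array except 8 weeks replicate 1 (adjusted p between 0.052 and 0.17 in limma). Of 29 kinases, phosphatases and binding partners of these proteins none passed, with a median of −0.02 and 20 negative changes. Cdk5, a kinase of doublecortin, had −0.07 ± 0.06 and its activator gene Cdk5r1 −0.03 ± 0.05.

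Markers of several cell types moved with Dcx, and their part in its change was not tested. Of all genes 0.673% were called lower in the trend. Of 12 genes of neuroblasts and immature neurons, 4 of which stand in another list too, 4 fell, among them Cd24a and Igfbpl1, and Sox11, a transcription factor of newborn neurons, had −0.55 ± 0.14 (adjusted p = 0.090 in limma). The mean level of this list was 10.73 on both 12-week arrays, against 11.22 and 11.27 on the 4-week arrays. Sox11 passed in 4 of 23 alternatives (adjusted p between 0.025 and 0.047 in limma). Of 7 genes of intermediate progenitors and dividing cells 5 fell, and the list mean was 7.53 and 7.64 at 12 weeks, against 8.30 and 8.28 at 4 weeks. There Eomes had a change of −1.14 ± 0.10, Mki67 of −0.87 ± 0.12 and Neurog2, which did not pass, of −0.23 ± 0.12. Of 6 genes of oligodendrocyte precursors 3 fell, with list means of 9.13 and 9.18 at 12 weeks, against 9.50 and 9.47 at 4 weeks. Gpr17 (−0.77 ± 0.09) and Olig2 (−0.50 ± 0.08) passed, and Pdgfra (−0.16 ± 0.08) and Cspg4 (−0.14 ± 0.07) did not. Olig2 did not pass without 4 weeks replicate 1 or 12 weeks replicate 2 (adjusted p = 0.086 and 0.059 in limma), nor Mki67 without 4 weeks replicate 1 (0.055). Of 5 myelin genes 3 fell, with list means of 10.62 and 10.61 at 12 weeks, against 11.16 and 11.13 at 4 weeks. Mog changed by −0.76 ± 0.07 and Mag by −0.72 ± 0.10, and Mbp had −0.27 ± 0.06, which did not pass. Mbp passed in 4 of 23 alternatives. Without both 4-week arrays, Eomes, Mki67, Gpr17, Olig2, Mog and Mag did not pass (adjusted p between 0.060 and 0.32 in limma). In that setting 7 of all genes were called lower. Gpr17 and Olig2 did not pass without both 12-week arrays either (adjusted p = 0.058 and 0.20 in limma). No marker in these 4 lists had a mean over the 10 arrays under the reference for dim signal (7.01). Some markers of dividing cells lay close to it, such as Mki67 with a mean of 7.29. Their levels at 12 weeks alone were not compared with it.

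Among 10 genes of mature granule cells 1 rose and 1 fell, Ntng1 (0.55 ± 0.09) and Tdo2 (−0.44 ± 0.08). Ntng1 did not pass without either 4-week array or 12 weeks replicate 1 (adjusted p between 0.062 and 0.068 in limma), nor Tdo2 without any 1 of the 4-week, 6-week or 12-week arrays or 10 weeks replicate 2 (between 0.051 and 0.15). Neither Ntng1 nor Tdo2 passed without both 12-week arrays (adjusted p = 0.16 and 0.21 in limma) or without both 4-week arrays (0.41 and 0.51). Prox1 had −0.14 ± 0.07 and C1ql2 0.19 ± 0.06. The list mean was 11.57 and 11.51 at 12 weeks, against 11.47 and 11.46 at 4 weeks. In the lists of astrocytes, interneurons, pyramidal and mossy cells, choroid plexus, and endothelium with microglia no gene passed. Examples are Aqp4 (−0.20 ± 0.10) and Gja1 (−0.18 ± 0.05) of astrocytes, Gad1 (−0.08 ± 0.05) and Gad2 (−0.17 ± 0.07) of interneurons, and Wfs1 (−0.30 ± 0.14) and Fibcd1 (−0.08 ± 0.12) of pyramidal cells. Gja1 passed with a trended prior variance (adjusted p = 0.046 in limma). The list medians were −0.12 for astrocytes and −0.09 for interneurons, each with 6 of 6 changes negative, and −0.07 for pyramidal and mossy cells, with 5 of 9 negative. Ttr (−0.63 ± 1.04) and Folr1 (−0.01 ± 0.26) of the choroid plexus turned in sign without 6 weeks replicate 1 (0.20 and 0.19). The choroid plexus list had a median of −0.35, with 4 of 5 negative. Cldn5 (0.24 ± 0.13) and Flt1 (0.40 ± 0.12) are endothelial, in a list with microglia that had a median of 0.01 and 3 of 6 changes negative. With the mean of the choroid plexus markers as a covariate, the trend of Dcx was −1.37 (adjusted p = 0.00051 in limma).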

How the data were processed

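Total RNA of mouse dentate gyrus was labelled with biotin and hybridised to whole-transcript arrays, per the labels' protocols. The deposited values were taken as log2 expression per probe set, from their range and like quartiles; the log base and the authors' software for background correction, summarization and normalization are not given in the sources used here. The genome build was mm10, per the submitters' processing notes.

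Of 25254 probe sets, 21496 name 1 gene in the platform annotation, 1565 several and 2193 none, and only the first were used. For 938 genes with several probe sets the brightest was kept, giving 19752 genes, dim ones included. Symbols were checked against a RefSeq table of GRCm38.p6 (0 changed, 81 gene numbers not in it). Arrays were grouped by age and numbered from their titles. The numbers do not pair the arrays by any label, and deviations from the age means correlated above 0.1 in 3 of 10 pairs of ages (range −0.335 to 0.16).

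Trends (age as a number) and contrasts (age as a factor) were fitted with limma 3.58.1 in R 4.3.3, two-sided, adjusted over all genes. Paralogue slopes were tested by exact permutation. The trend and the contrast of 12 with 4 weeks were tested on simulated data with known changes and normal noise. A fall of 0.4 was recovered for 56.7% of the changed genes in the trend and 35.8% in the contrast. For a fall of 0.8 these shares were 92.5% and 85.1%. Changes of 0.4 or less can thus be missed. The step contrasts were not simulated on their own. The 2 arrays per age limit the precision. The alternatives were the replicate block, quantile normalization, median centring, a filter on the dimmest 30%, trended and robust prior variances, array weights, means over probe sets, choroid plexus markers as a covariate, log2 of age, and leaving out arrays or ages.

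The 10 genes, the gene lists and the alternatives were chosen with earlier results of these data known. Named are the 10 genes, all measured genes of the doublecortin-domain list, up to 6 called genes of each other pathway list (the first 2 measured where fewer than 2 were called), the first 2 and up to 2 called genes of each cell type list, the 5 genes most correlated with Dcx and the 1 most correlated with each other gene. Others are said to be chosen after their values were seen.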

Additional observations from a re-analysis of the deposited data

How the results depend on the processing

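The fall of Dcx passed in all 23 alternatives of the trend (−1.63 to −0.96, adjusted p from 5.7e-06 to 0.016 in limma) and in all 20 of 12 minus 4 weeks (−1.43 to −1.33). With the replicate block the adjusted p of Dcx was 0.0017 in the trend and 0.0016 for 12 minus 4 weeks in limma. The block changed no call of the 10 genes, brought Dclk1 minus Dclk2 past the threshold (−0.15, exact permutation adjusted p = 0.044), and left 14 genes called higher between 12 and 4 weeks, against 25 without it. Of the 10 genes, 2 were called lower in the trend without the dimmest 30% of genes, 2 with array weights and 3 with a trended prior variance, which also called 3 between 12 and 4 weeks. From 4 to 6 weeks, 1 of the 10 genes (Dcx) was called lower with quantile normalization (−0.69), without the dimmest 30%, with a trended prior variance and with array weights. Of the paralogue pairs, 5 passed without 6 weeks replicate 1 and 8 weeks replicate 1 together, against 3. The cause was not tested for any of these changes.

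Counts over all genes moved more. In the trend, 133 genes were called lower and 29 higher. The counts were 264 and 73 without the dimmest 30%, where fewer genes are tested, 273 and 77 with a trended prior variance, 317 and 100 with array weights, 47 and 4 without both 12-week arrays, and 7 and 0 without both 4-week arrays. Higher calls were 61 with quantile normalization and 59 without 6 weeks replicate 1 and 8 weeks replicate 1. Leaving out 1 array gave 33 to 215 lower and 2 to 64 higher, with the most without 8 weeks replicate 1 and the fewest without 4 weeks replicate 1. Between 12 and 4 weeks, 77 lower and 25 higher became 134 and 76, 197 and 106, and 164 and 97 in the first 3 of these settings. Higher calls were 55 with quantile normalization, 11 with choroid plexus markers as a covariate and 48 without both arrays that stand apart, and leaving out 1 array gave 12 to 120 lower and 1 to 68 higher. From 4 to 6 weeks, 1 gene was lower with quantile normalization, 3 without the dimmest 30%, 7 (and 3 higher) with a trended prior variance and 3 with array weights. From 10 to 12 weeks, 2, 3, 9 and 4 genes were higher in the same 4 settings, 1 with the choroid plexus covariate and 2 without both arrays that stand apart. Leaving out 1 array gave 0 to 203 lower and 0 to 876 higher from 6 to 8 weeks, where 203 and 876 came without 8 weeks replicate 2 and 7 lower without 6 weeks replicate 2. It gave 0 to 10 higher from 4 to 6 weeks, with 10 without 6 weeks replicate 2, and 0 to 1 higher from 10 to 12 weeks.

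Small changes that had not passed turned in sign. Without both 12-week arrays the trend was −0.056 for Dclk2, 0.0069 for Stmn3, −0.053 for Map1b, 0.053 for Dcdc2c, 0.054 for Cdk5, 0.052 for Fibcd1, 0.091 for Folr1, −0.042 for Lmbrd2 and −0.13 for Lonrf2, and Stmn1 minus Stmn4 was −0.077. Without both 4-week arrays it was 0.0080 for Stmn1, −0.033 for Cldn5 and 0.0044 for Dcaf12, with 0.12 for Stmn2 minus Stmn4 and 0.13 for Stmn1 minus Stmn3. Map1s had 0.017 with quantile normalization and 0.0034 with median centring. Folr1 had 0.047 with array weights, 0.10 with the choroid plexus covariate and 0.039 with log2 of age, where Lonrf2 had −0.0078. Without both arrays that stand apart, Ttr had 0.20, Folr1 0.19 and Lonrf2 −0.0006. With the mean over probe sets Stmn3 had 0.0061 between 12 and 4 weeks. Leaving out 1 array gave trends of −0.018 to 0.11 for Dclk2, −0.021 to 0.051 for Map1b, −0.067 to 0.013 for Map1s, −0.14 to 0.016 for Fibcd1, −1.49 to 0.20 for Ttr, −0.19 to 0.19 for Folr1 and −0.072 to 0.066 for Lonrf2. It gave differences between 12 and 4 weeks of −0.0098 to 0.13 for Dclk2, −0.098 to 0.014 for Stmn3 and −0.013 to 0.070 for Map1b, and −0.11 to 0.063 for Stmn2 minus Stmn4.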
